A study of Mus musculus with 8 samples.

Results

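The cytosolic ribosomal protein genes encode the structural proteins of the ribosome, and H3K4me3, a histone mark of active start sites, was described here at all of their listed peaks. The members were all peaks of the deposited H3K4me3 table whose gene symbol begins with Rpl or Rps followed by a number, plus *Rplp0*, *Rplp1*, *Rplp2* and *Rpsa*, leaving out pseudogenes and the kinases whose symbols start with Rps6k. This rule used only the symbol, and it took 84 of 35486 peaks, which belong to 64 of 20871 gene symbols. H3K4me3 was measured by an assay that the labels call CUT&Tag, in which an antibody guides an enzyme to the mark. As that enzyme the labels name a protein A/G fusion to micrococcal nuclease, which cuts free the DNA beside the mark for sequencing. Such a nuclease step belongs to CUT&RUN, so the name and the described protocol do not match. The labels give 4 libraries, replicates 1 and 2 from KL mice and replicates 3 and 4 from KLG4m/m mice. The study's figure legend for this assay gives 2 mice a group, which would match the libraries. The protocol, however, counts 3 mice in all, so that it is not certain that each library stands for a mouse of its own. The p-values measure only the spread between these libraries, which may in part be technical.

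KL mice carried KrasLSL-G12D/+ and Lkb1fl/fl, and KLG4m/m mice carried the same alleles together with Gpx4m/m. Mice of both groups were given Ad-Cre into the nose at 8 to 10 weeks of age and were later injected with tamoxifen, and lung tumor cells were taken 10 weeks after the virus, so that the tumor alleles, the virus and tamoxifen were common to all libraries. In Gpx4m/m cells, Cre removes a stop cassette in front of the DreERT2 recombinase, which then needs tamoxifen to cut out part of *Gpx4* between its rox sites. The deletion is therefore limited to cells that Cre has reached. Cells were sorted as CD45-CD31-EpCAM+, and H3K27ac libraries of the same groups were not analysed here.

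A ribosome is built from a small (40S) and a large (60S) subunit, each made of ribosomal RNA and a fixed set of proteins, most of which are present once in every particle. Ribosomal protein genes are among the most active genes of growing cells. Their promoters usually lack a TATA box, and their messages begin with a C followed by a run of pyrimidines, the TOP (terminal oligopyrimidine) motif, through which the kinase mTORC1 and the RNA-binding protein LARP1 set their translation. Some ribosomal proteins also act away from the ribosome: RPL5 and RPL11 bind MDM2, the ubiquitin ligase of p53, when ribosome assembly is disturbed.

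The rule covered most of the ribosome. Of 47 genes of the large subunit 38 had a listed peak under their own symbol, and of 33 genes of the small subunit 24 had one, counting *Fau* and *Rack1*, which the rule leaves out by their symbols. No listed peak carried the symbols *Rpl6*, *Rpl7a*, *Rpl9*, *Rpl12*, *Rpl15*, *Rpl35*, *Rpl41* and *Rplp2* of the large subunit, or *Rps7*, *Rps13*, *Rps14*, *Rps20*, *Rps25*, *Rps27*, *Rps27a*, *Rps28* and *Rps29* of the small one. The other members were the paralogs *Rpl6l*, *Rpl7l1*, *Rps4l* and *Rps27l*. The paralogs *Rpl3l*, *Rpl10l*, *Rpl22l1* and *Rpl39l* had no listed peak.

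A missing symbol does not mean a missing peak, because the table gives each peak to 1 gene only. *Rps10* had a single listed peak of its own, 7.55 kb before its start site, yet the peak centred 152 bases from the *Rps10* start carries the symbol *Gm15420*. The peak centred 17 bases from the *Rps21* start is listed under the microRNA gene *Mir3091*. Of the 18 structural genes with no listed peak, 13 had a RefSeq promoter entry to search from. For 6 of these, a gene whose RefSeq start lies within 1 kb on GRCm38 did have start-site peaks, 7 in all: *Med22* beside *Rpl7a*, *Lias* beside *Rpl9*, *Lrsam1* beside *Rpl12*, *Gm10589* beside *Rps13*, *Rab13* beside *Rps27* and *Ndufa7* beside *Rps28*. These 7 were taken by symbol, with no check of their distance to the missing gene. The *Rab13* peaks, starting at chr3:90120736 and chr3:90127845, lie too far apart for both to stand at the *Rps27* start. None of the 9 peaks named in this paragraph under another symbol passed the test between the groups that is described further on. Their log2 fold changes, KLG4m/m over KL, ran from -0.19 at *Rab13* to 0.24 at the peak on the *Rps21* start.

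Start-site sequences of members named in the results are shown to set the TOP motif beside the values that follow. RefSeq promoters of GRCm38.p6 were matched by symbol, which gave 57 promoters for 46 of the 64 genes; 18 genes had no entry. Each line holds 10 bases before the annotated start and 20 bases from the start on, read along the gene. Capitals mark the first run of a C and at least 4 further pyrimidines in this window.
*Rpl14* (chr9:120571507-120571536, plus strand): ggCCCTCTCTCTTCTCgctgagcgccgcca
*Rpl31* (chr1:39367841-39367870, plus strand): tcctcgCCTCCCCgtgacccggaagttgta
*Rpsa* (chr9:120127756-120127785, plus strand): ttatttaaggacgtcatttccggccgcccg
*Rps10* (chr17:27635225-27635254, minus strand): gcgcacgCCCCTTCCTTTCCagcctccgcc
*Rpl35a*, the second of 3 promoters (chr16:33056472-33056501, plus strand): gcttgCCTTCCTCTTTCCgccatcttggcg
*Rps6* (chr4:86857348-86857377, minus strand): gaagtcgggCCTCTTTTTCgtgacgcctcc
*Rplp0* (chr5:115559457-115559486, plus strand): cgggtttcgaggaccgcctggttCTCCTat
*Rpl11* (chr4:136053374-136053403, minus strand): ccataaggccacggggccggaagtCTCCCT

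In *Rpl14*, *Rpl31*, *Rps10* and *Rpl35a* the run begins before the annotated start and crosses it, and in *Rps6* it begins 1 base before the start. In *Rplp0* and *Rpl11* the first run begins only at base 14 and base 15, counting the annotated start as base 1. The window of *Rpsa* holds no such run, and neither do those at the other 2 promoters of *Rpl35a*. Over all 57 promoters, 42.1% had a C within 5 bases of the start that was followed by at least 4 further pyrimidines. Such a stretch can lie inside a run that began earlier, as at *Rpl14*. The share was 17.1% of all 32851 RefSeq promoters searched in the same way. Such a stretch was found at *Rpl14*, *Rpl31*, *Rps10* and *Rpl35a* among the genes with a peak that passed the test, *Rpl17* and *Rpl32* having no promoter entry.

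Matches to 5 short motifs were counted on both strands of the whole window, from 250 bases before the start to 50 bases after it. CTTCCGG, the core bound by ETS factors such as GABP, was in 33.3% of the ribosomal protein promoters and in 8.86% of all promoters. GCCATNTT, the core of the YY1 site, was in 24.6% against 6.05%. GGGCGG, the GC box of SP factors, was in 63.2% against 35.7%. CACGTG, the E-box of MYC and related factors, was in 14% against 7.15%. TATAAA was in 8.77% against 13.6%. The median GC content was 58.3% against 52.7%, and the median number of CG dinucleotides per promoter was 21 against 7. These windows thus differ from the average promoter in base composition as well as in the motifs, and a match is a description of letters, not a bound site.

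**Figure D1:**
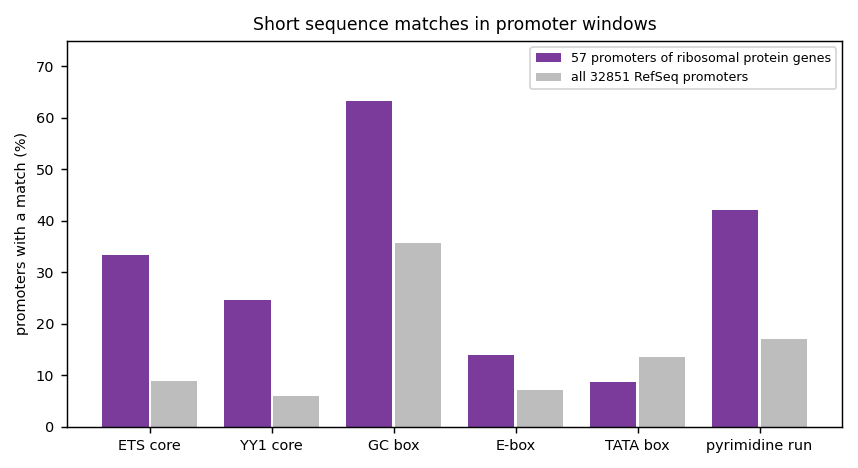
Percent of promoter windows with a match to each short motif (y axis), for 57 promoters of 46 ribosomal protein genes (purple) and all 32851 RefSeq promoters (grey). The bars of the ETS core stand at 33.3% and 8.86%, and those of the pyrimidine run at 42.1% and 17.1%; only for the TATA box is the grey bar the taller one.

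All member peaks were 400 bases wide. Their positions are printed as the table gives them. The study's methods name a reference that rests on GRCm38, but the start sites of the table are not those of GRCm38, so the peaks cannot be set against the promoter positions above. A peak within 1 kb of the start site, called a start-site peak here, was listed for 61 of the 64 genes, 1 for each, on 17 chromosomes. The other 23 member peaks lay farther away, 15 of them between genes and 5 in introns. A single peak was listed for 54 genes, 2 peaks for 6 genes and 3 or more for 4 genes.

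The start-site peaks were strong and much alike. Levels are given as CPM, the reads of a peak scaled to 1 total of reads in listed peaks for all libraries and then by TMM, edgeR's trimmed mean of M values. The member peaks all have the same width, so their levels can be compared with each other. The width of the other listed peaks was not tallied, and comparisons with them take it to be the same. The median level over the 61 start-site peaks was 72.0 CPM, against 41.2 CPM over all 17073 listed start-site peaks, and only 22.3% of all start-site peaks lay above the median ribosomal protein gene peak. Between the 10th and the 90th percentile the ribosomal protein gene peaks ran from 51.4 to 106 CPM, a ratio of 2.07, where all start-site peaks ran from 6.48 to 90.4 CPM, a ratio of 13.95. This narrow range was not particular to them: the ratio was 2.45 for the genes of the mitochondrial ribosome and 2.40 for those of the proteasome. The annotated start site lay inside the peak for 50 of the 61, or 82.0%, against 60.7% of all start-site peaks, 77.4% of those of the mitochondrial ribosome and 80.0% of those of the proteasome. The peaks were centred a median of 3 bases downstream of it, against 80 bases for all, 82.5 for the mitochondrial ribosome and 29 for the proteasome. This median joins 39 bases for the large subunit and -22.5 bases, upstream of the start, for the small one. The medians for the large subunit (72.7 CPM, 38 peaks) and the small subunit (70.2 CPM, 20 peaks) were close.

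Among the strongest start-site peaks, *Rpl19* had 116 and 123 CPM in the KL libraries and 128 and 122 CPM in the KLG4m/m libraries, and *Rpl37* had 114, 111, 109 and 112 CPM in replicates 1 to 4. *Rps18* had 117, 103, 115 and 107 CPM, *Rps23* had 96.9, 103, 109 and 127 CPM, and *Rps27l*, a paralog known as a p53 target, had 93.5, 109, 110 and 115 CPM. From *Rpl37* to *Rps27l* the ranges over the 4 libraries overlap from each gene to the next.

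At the other end were genes without a start-site peak under their own symbol or with a weak one. *Rps10*, by its distal peak, had 6.33 and 7.20 CPM in KL and 1.16 and 3.72 CPM in KLG4m/m, and the single distal peak of *Rps21* had 12.4, 10.1, 9.57 and 6.50 CPM. The strongest peak of *Rpl6l* had 9.49, 10.4, 15.4 and 13.3 CPM. The start-site peak of the paralog *Rps4l* had 15.2, 10.1, 14.5 and 11.1 CPM, less than any start-site peak of a canonical gene. Among those, *Rpsa* was lowest with 43.2 and 44.1 CPM in KL and 33.6 and 24.8 CPM in KLG4m/m, followed by the X-linked *Rps4x* with 42.0, 43.5, 40.02 and 44.6 CPM.

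**Figure D2:**
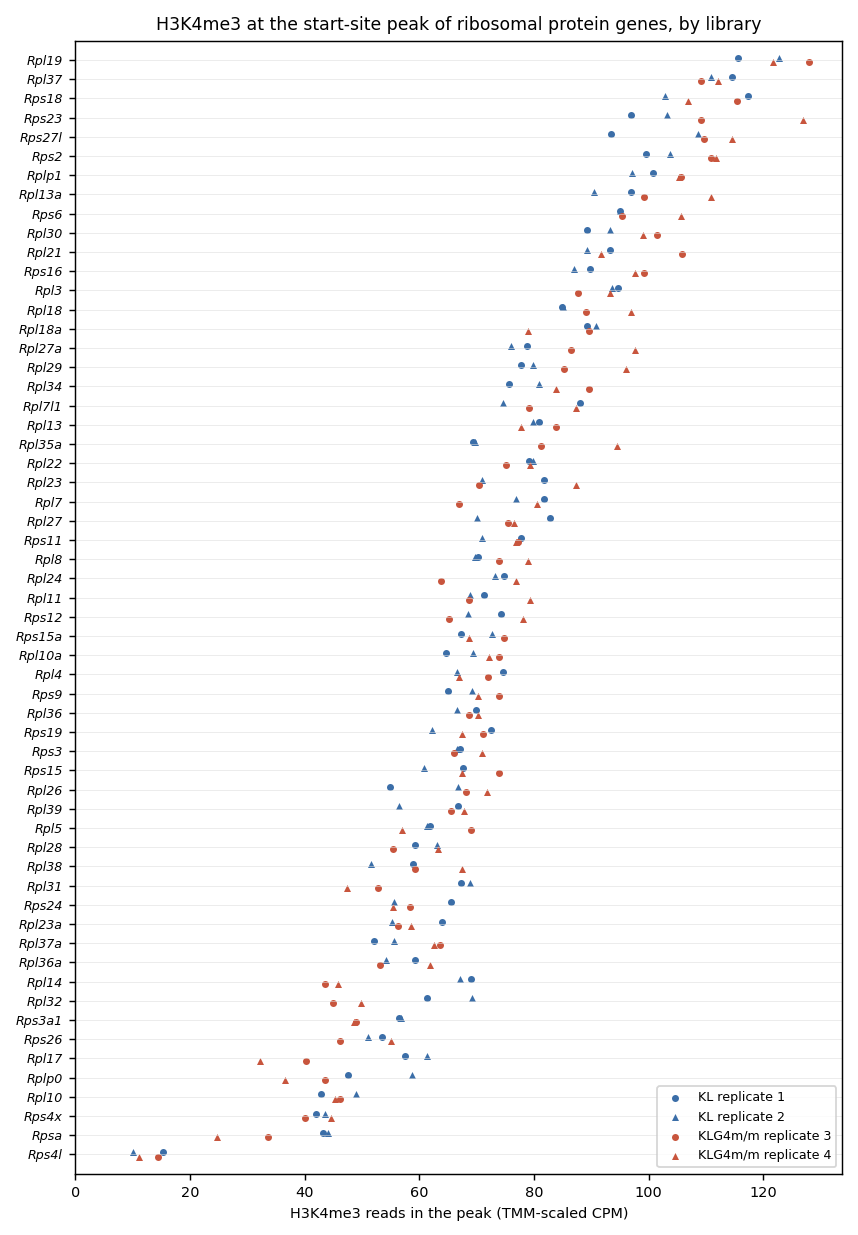
H3K4me3 at the start-site peak of each of 58 ribosomal protein genes (rows, in order of their mean), in TMM-scaled CPM on the x axis; circles and triangles are single libraries, blue for KL and red for KLG4m/m. Most genes lie between 51.4 and 106 CPM. At *Rpl14*, *Rpl17*, *Rpl31*, *Rpl32* and *Rpsa* the red points stand to the left of the blue ones. The colours are also apart at many genes that did not pass the test described below, such as *Rplp0* (red to the left) and *Rps23* (red to the right). In all, the groups did not overlap at 30 of the 61 start-site peaks.

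The libraries held 3244495 to 3463731 reads in listed peaks, with TMM factors from 0.995 to 1.00, and a start-site peak of a member had at least 35 reads in every library. Markers of the sorted cells and of other cells were read from the reads of all peaks of a gene. In this test of summed reads, 9.63% of all genes were lower and 5.38% were higher in KLG4m/m. All 7 epithelial markers had peaks, and 2 of them passed the test as lower in KLG4m/m, *Epcam* by 0.82 and *Cdh1* by 0.38 on the log2 scale. Of the alveolar type 2 markers 5 of 6 had peaks (*Sftpc* had none) and 3 were lower, while *Nkx2-1* and *Napsa* did not pass. The sum over these 5 was 147 to 152 CPM in KL and 108 to 110 CPM in KLG4m/m. Of the leukocyte markers 6 of 7 had peaks (*Cd79a* had none) and 2 were higher, *Itgam* by 0.56 on the log2 scale among them. The sum over the 6 leukocyte markers with peaks was 192 to 200 CPM in KL and 242 to 257 CPM in KLG4m/m. The endothelial sum was 155 to 188 against 146 to 171 CPM, with *Tek* lower, and the fibroblast sum, from 2 of 5 markers, was 62.0 to 68.8 against 63.1 to 65.7 CPM. The part of these cell types in the differences given below was not tested. In sorted bulk cells, fewer cells with the mark and less of the mark per cell cannot be told apart. The *Gpx4* peak lies at the promoter, outside the deleted exons, so its level is no check of the deletion.

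The comparison of KLG4m/m with KL asks which of these peaks gained or lost H3K4me3 when *Gpx4* was deleted in the tumor cells. Of the 84 member peaks, 6 were lower and 1 was higher in KLG4m/m, and 77 did not pass (edgeR's quasi-likelihood test, adjusted p under 0.05 by Benjamini-Hochberg over all 35486 peaks). Over all listed peaks the test called 5.52% lower and 3.1% higher, so that the counts of members lie close to this background. Among the 61 start-site peaks 5 were lower and 1 was higher, beside 8.43% and 2.89% of all 17073 start-site peaks. The median log2 fold change of the start-site peaks was 0.04, with the middle 80% from -0.28 to 0.19, and over all start-site peaks it was 0.00, with the middle 80% from -0.52 to 0.30. Of the members' start-site peaks, 85.2% lay within 0.25 of no change, against 63.2% of all start-site peaks and 70.8% of the 13253 in the same range of levels, of which 9.11% were lower and 2.91% were higher. The share was 96.8% for the mitochondrial ribosome and 91.4% for the proteasome, both above that of the members. With 2 libraries a group these p-values rest on a spread shared among peaks. No call was left when either KLG4m/m library was taken out, neither among the members nor among all peaks.

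Of the 5 lower start-site peaks, 4 belong to the large subunit. At *Rpl14* the peak at chr9:120400342-120400742 had 69.0 and 67.1 CPM in KL and 43.5 and 45.8 CPM in KLG4m/m. The groups lay far apart beside their own spread. The mean fell from 68.1 ± 1.36 to 44.7 ± 1.64 CPM (SD, n = 2 each), a log2 fold change of -0.61 with an SE of 0.11 and an adjusted p of 0.000867 (edgeR). It passed in 4 of 9 alternatives.

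At *Rpl17*, whose protein lines the peptide exit tunnel, the start-site peak had 57.5 and 61.4 CPM in KL and 40.3 and 32.2 CPM in KLG4m/m. The log2 fold change was -0.71 ± 0.13 (SE), the largest fall among the start-site peaks of the members, with an adjusted p of 0.000756 (edgeR). It was the one member peak that DESeq2 also called, with an adjusted p of 0.0406. A second, weak peak of *Rpl17*, with 13 to 18 reads in a library, had a log2 fold change of -0.03.

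At *Rpl31*, whose protein also sits near the tunnel exit, the peak at chr1:39406689-39407089 had 67.3 and 68.8 CPM in KL and 52.8 and 47.4 CPM in KLG4m/m. This was a log2 fold change of -0.44 ± 0.11 (SE) with an adjusted p of 0.0112 (edgeR). At *Rpl32* the peak at chr6:115785383-115785783 had 61.3 and 69.1 CPM in KL and 45.0 and 49.9 CPM in KLG4m/m, a log2 fold change of -0.46 ± 0.11 (SE) with an adjusted p of 0.0113 (edgeR). In both genes each KLG4m/m library lay below each KL library.

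*Rpsa* was the only gene of the small subunit with a start-site peak that passed. It encodes a protein of the small subunit that is also known as a laminin receptor. Its peak at chr9:119956575-119956975 had 43.2 and 44.1 CPM in KL and 33.6 and 24.8 CPM in KLG4m/m. The mean fell from 43.6 ± 0.649 to 29.2 ± 6.27 CPM (SD, n = 2 each), a log2 fold change of -0.57 ± 0.15 (SE) with an adjusted p of 0.0142 (edgeR). The KLG4m/m libraries differed more from each other than the KL libraries did, and without replicate 3 or replicate 4 the log2 fold change was -0.82 or -0.37, respectively.

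The sixth lower peak belongs to *Rps10* by its symbol only. It lies between genes at chr17:27861772-27862172, with 22 and 25 reads in KL and 4 and 12 reads in KLG4m/m. The log2 fold change was -1.48 ± 0.42 (SE) with an adjusted p of 0.0272 (edgeR), and it was -2.51 without replicate 4 and -0.86 without replicate 3. The peak on the *Rps10* start itself, listed under *Gm15420*, had 209 and 238 reads in KL and 196 and 198 reads in KLG4m/m, which is -0.12 on the log2 scale, with a 95% interval from -0.35 to 0.10, and was no call.

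The single higher peak was that of *Rpl35a*, a large-subunit gene mutated in some patients with Diamond-Blackfan anemia. Its peak at chr16:32876710-32877110 had 69.3 and 69.7 CPM in KL and 81.2 and 94.4 CPM in KLG4m/m. The log2 fold change was 0.33 ± 0.10 (SE) with an adjusted p of 0.0336 (edgeR). The call was lost when any of the 4 libraries was left out, with log2 fold changes from 0.23 to 0.44.

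**Figure D3:**
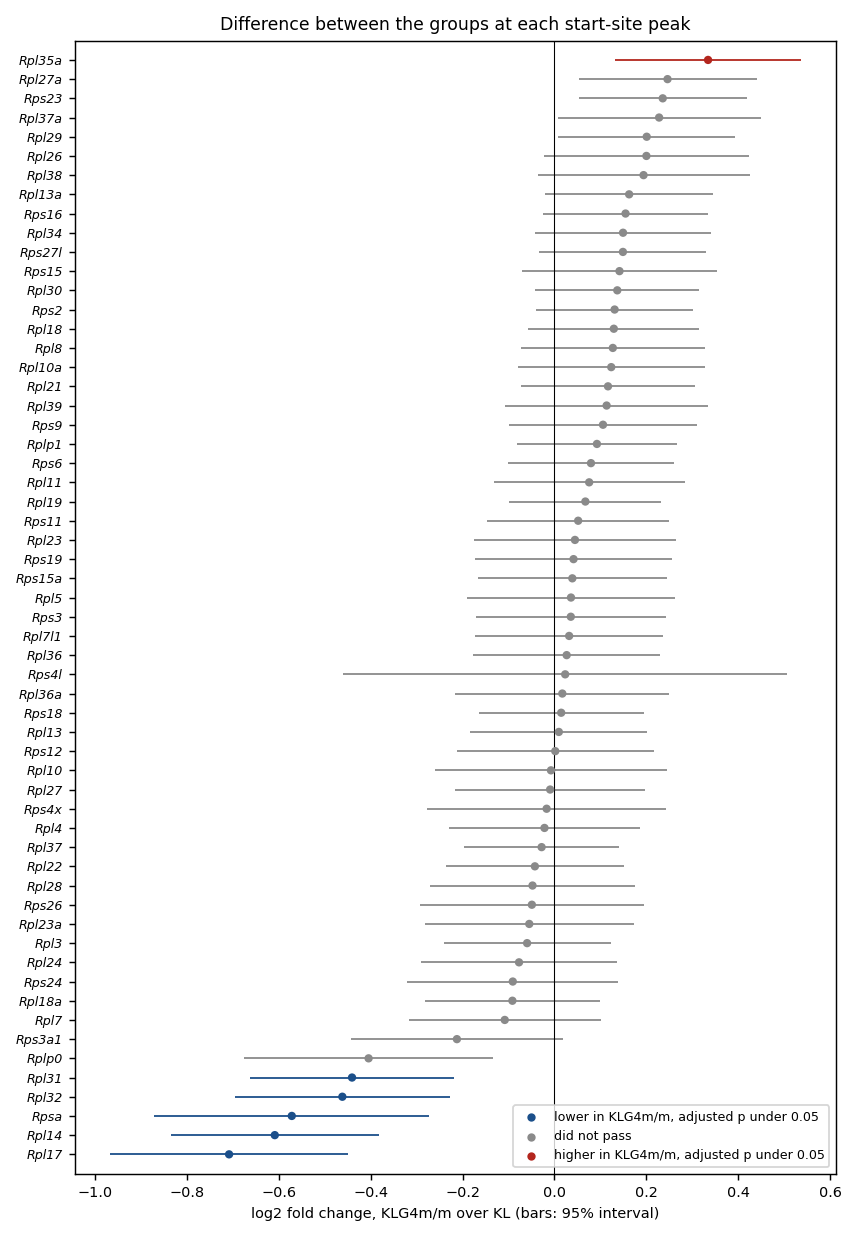
Log2 fold change of KLG4m/m over KL (x axis; points, with bars for the 95% interval) at the start-site peak of 58 ribosomal protein genes, in order of the change. The 5 blue points at the bottom, from -0.71 at *Rpl17* to -0.44 at *Rpl31*, and the red point of *Rpl35a* at 0.33 passed; the grey ones did not.

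Several members lay just outside the threshold. *Rplp0*, the protein that anchors the stalk of the large subunit, had 47.5 and 58.8 CPM in KL and 43.5 and 36.5 CPM in KLG4m/m, a log2 fold change of -0.40 ± 0.13 (SE) with an adjusted p of 0.0539 (edgeR). On the other side, *Rps23* at the decoding center and *Rpl27a* had log2 fold changes of 0.24 and 0.25 with adjusted p-values of 0.0971 and 0.103 (edgeR). In these 3 genes the libraries of the groups did not overlap, which was also so at 30 of the members' 61 start-site peaks and at 57.0% of all start-site peaks.

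When the reads of all peaks of a gene were summed and the test was adjusted over 20871 genes, 8 of the 64 genes were lower and 2 were higher, where 9.63% of all genes were lower and 5.38% were higher. The genes lower included those of the 6 lower peaks and *Rplp0* (-0.41, adjusted p = 0.0193, edgeR). *Rps23* joined *Rpl35a* as higher, with a log2 fold change of 0.23 and an adjusted p of 0.0481 (edgeR). *Rplp0* and *Rps23* have 1 peak each, so their reads are the same as in the test of single peaks.

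The change of a member was related to its mean level over the 4 libraries. This is in part built in, because that mean holds the KLG4m/m values and falls with them. Across the 61 start-site peaks Spearman's rho between the mean CPM and the log2 fold change was 0.50, and over all start-site peaks it was 0.19; the points share the same 4 libraries, and the rho is a description. The 5 lower start-site peaks had means of 36.4 to 59.1 CPM, all below the members' median of 72.0 CPM. In the KL libraries alone their means were higher, from 43.6 CPM at *Rpsa* to 68.1 CPM at *Rpl31*. The 6 highest peaks had log2 fold changes from -0.03 to 0.24, and none passed.

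**Figure D4:**
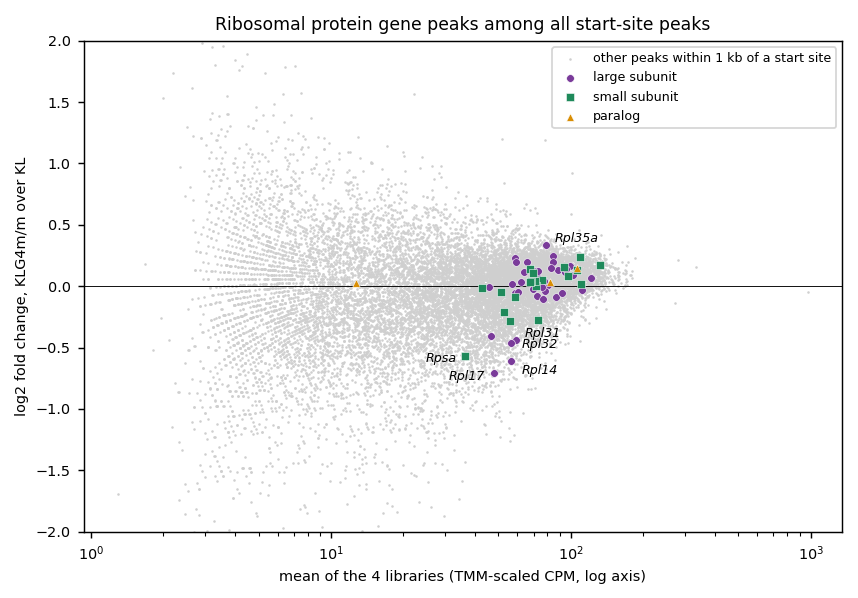
Mean level over the 4 libraries (x axis, log scale, TMM-scaled CPM) and log2 fold change of KLG4m/m over KL (y axis, drawn from -2 to 2) at start-site peaks: ribosomal protein genes in colour by subunit, all other start-site peaks in grey. The coloured points form a narrow group at the upper end of the levels; the 5 lower ones lie at 36.4 to 59.1 CPM.

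*Rpl5*, *Rpl11*, *Rps6* and *Rps19*, each known for a particular role in signaling or disease, did not pass. *Rpl5* had 61.9 and 61.4 CPM in KL and 69.0 and 57.0 CPM in KLG4m/m, with a log2 fold change of 0.04 and a 95% interval from -0.19 to 0.26. The start-site peak of *Rpl11*, its partner on the ribosomal 5S RNA, had 71.3 and 68.8 CPM in KL and 68.7 and 79.3 CPM in KLG4m/m, with a log2 fold change of 0.08 and an interval from -0.13 to 0.28. For *Mdm2* the start-site peak had 136 and 130 reads in KL and 157 and 120 reads in KLG4m/m, or 0.12 on the log2 scale, and was not called. *Rps6*, the ribosomal protein that S6 kinases phosphorylate, had 94.9, 95.1, 95.4 and 106 CPM in replicates 1 to 4, with a log2 fold change of 0.08 and an interval from -0.10 to 0.26. *Rps19*, the gene most often mutated in Diamond-Blackfan anemia, had 72.5, 62.2, 71.1 and 67.5 CPM and a log2 fold change of 0.04, with an interval from -0.17 to 0.25. The intervals of these 4 ribosomal protein genes leave out changes beyond 0.283 on the log2 scale in either direction.

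Of the other members with known particular roles, *Rplp1*, a stalk protein that binds *Rplp0*, had 101 and 97.1 CPM in KL and 106 and 105 CPM in KLG4m/m. Its log2 fold change of 0.09 had an interval from -0.08 to 0.27, beside -0.40 at *Rplp0*; the difference between these peaks was not tested. *Rpl3*, near the peptidyl transferase center, had 94.6, 93.6, 87.6 and 93.2 CPM and a log2 fold change of -0.06. *Rpl22* had 79.1, 79.8, 75.1 and 79.3 CPM and a log2 fold change of -0.04. *Rpl10*, which is X-linked and among the last proteins to join the large subunit, had 42.9, 49.0, 46.1 and 45.2 CPM and a log2 fold change of -0.01. In all 3 genes the 95% interval included 0. Among the paralogs, *Rpl7l1* had a log2 fold change of 0.03 and *Rps27l* of 0.15, and neither passed. *Fau* and *Rack1*, structural genes outside the rule by their symbols, had log2 fold changes of 0.11 and 0.07.

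Over the subunits, 4 of 38 start-site peaks of the large subunit were lower and 1 was higher, and 1 of 20 of the small subunit was lower and none higher, beside 8.43% lower and 2.89% higher of all start-site peaks. At an unadjusted p under 0.05 in edgeR, 3 of the small subunit were lower and 2 were higher, beside 17% and 11% of all start-site peaks. Their median log2 fold changes were 0.03 and 0.04. For comparison, the genes of the mitochondrial ribosome, a separate set of proteins for translation inside mitochondria, had 62 start-site peaks with a median level of 80.0 CPM and a median log2 fold change of 0.07. The genes of the proteasome, another large complex of fixed composition, had 35 with 77.3 CPM and 0.08. No peak of these last 2 sets passed in edgeR, where 8.43% and 2.89% of all start-site peaks were lower and higher. None passed in DESeq2 or limma either, which says little. Of all 35486 peaks DESeq2 called only 250 lower and 33 higher, and limma called 0. At an unadjusted p under 0.05 in edgeR, 0 of the mitochondrial ribosome and 1 of the proteasome were lower and 4 and 7 were higher, beside the same 17% and 11%. The differences between the sets were not tested.

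Genes with 3 or more peaks allowed the start site and its surroundings to be compared. *Rpl11* had 3 distal peaks 17.8 to 35.9 kb before its start. The middle one had 59 and 55 reads in KL and 87 and 71 reads in KLG4m/m, a log2 fold change of 0.53 with an adjusted p of 0.0661 (edgeR). The farthest had 13 and 9 reads in KL and 28 and 13 reads in KLG4m/m, which was 0.95 with an adjusted p of 0.144 (edgeR). *Rpl21* had 2 distal peaks before its start, of 69 to 96 reads in a library, with log2 fold changes of -0.15 and -0.02, beside 0.12 at the start. *Rpl31* had 5 peaks from 11.2 to 49.7 kb after its start, with only 6 to 25 reads in a library and log2 fold changes from -0.43 to 0.36, none of which passed while its start-site peak did. *Rpl6l* had 5 peaks, the nearest 1.37 kb after its start, with log2 fold changes from -0.49 to 0.81, and none passed. Over the 23 member peaks beyond 1 kb, 1 was lower and none was higher, beside 2.82% and 3.29% of all peaks beyond 1 kb; at an unadjusted p under 0.05 in edgeR 1 was lower and 4 were higher, beside 10.2% and 11.3%. No gene had peaks that passed in opposite directions.

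Listed peaks within 50 kb of the 7 member peaks that passed numbered 31, of which 2 were lower and 2 were higher. Over all listed peaks 5.52% were lower and 3.1% were higher. Around *Rpl14*, *Rpl17*, *Rpl31* and *Rpsa* none of the 17 other peaks passed. The 4 around *Rpl31* were its own distal peaks, with only 6 to 25 reads in a library. Around *Rpl17* the log2 fold changes ran from -0.31 to 0.21, both at *Dym*. The first of these, at the *Dym* promoter 18.7 kb away, had an adjusted p of 0.0639 (edgeR). The peaks nearest to *Rpl14* and *Rpl17* on the side of the next gene were the promoter peak of *5830454E08Rik*, 5.84 kb away, with a log2 fold change of 0.19, and that of *BC031181*, 5.30 kb away, with 0.15. Around *Rpl32*, 2 peaks were higher: one at *Snora7a*, a small nucleolar RNA gene 15.8 kb away (36 and 43 reads in KL, 82 and 71 in KLG4m/m; log2 fold change 1.01), and the promoter of *Tmem40*, 49.2 kb away, with a log2 fold change of 0.67. The promoter of *Nudt3*, 19.5 kb from the distal *Rps10* peak, was lower, with 215 and 205 reads in KL and 106 and 78 reads in KLG4m/m and a log2 fold change of -1.13. Beside *Rpl35a*, the promoter peak of *Lmln* 5.71 kb away was lower by 0.42 on the log2 scale, where *Rpl35a* was higher by 0.33.

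**Figure D5:**
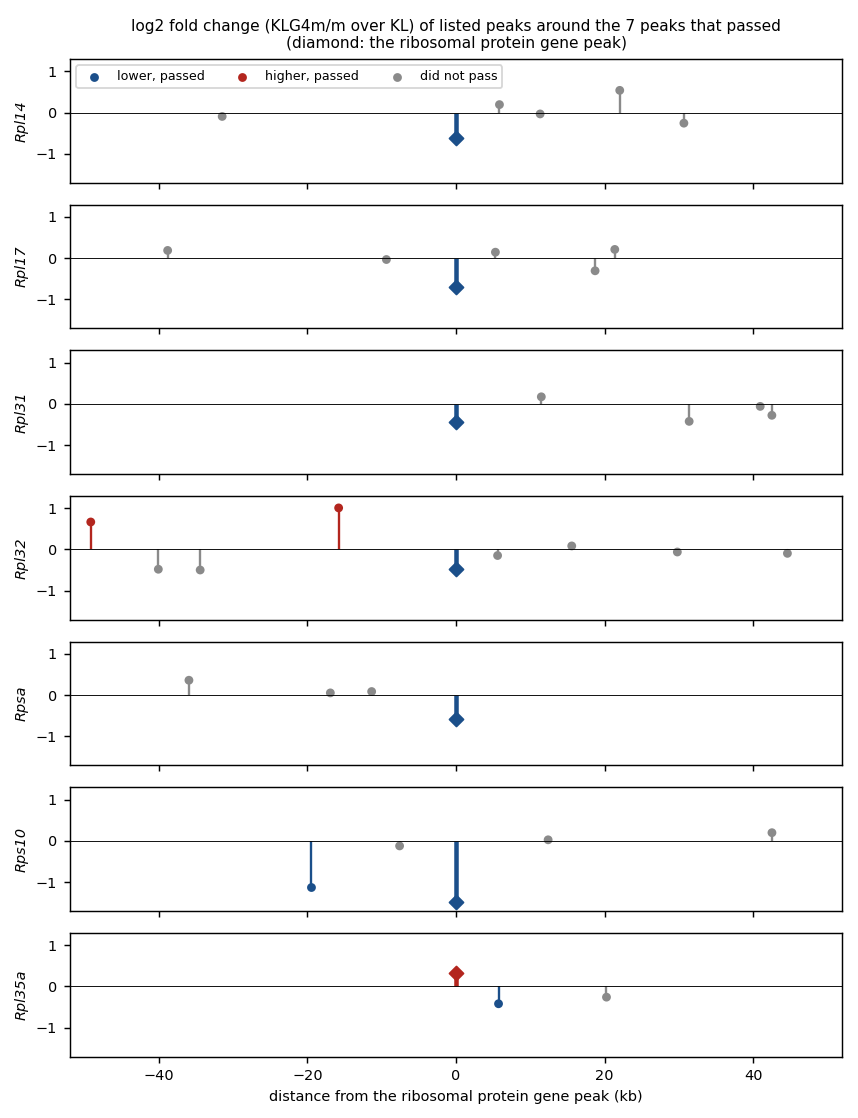
Log2 fold change (y axis, KLG4m/m over KL) of listed peaks by their distance in kb (x axis) from each of the 7 member peaks that passed, which are drawn as diamonds. Blue and red peaks passed as lower and higher; in the panels of *Rpl14*, *Rpl17*, *Rpl31* and *Rpsa* the diamond alone is coloured.

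The genes that make ribosomes and control the translation of TOP messages were read from the reads of all their peaks, against the 9.63% lower and 5.38% higher of all genes. Of 28 ribosome biogenesis genes with a peak, none was lower and 1 was higher: *Nhp2*, a protein of the particles that modify ribosomal RNA, at 0.25 (adjusted p = 0.0308, edgeR). *Rrp1* and *Nop56* came next, at 0.26 and 0.17, and did not pass. None of the 11 genes with a peak for RNA polymerase I, which transcribes ribosomal RNA, and its factors passed, and their median was 0.01. Of 16 translation factors with TOP messages 2 were higher, the helicase gene *Eif4a2* (0.30, adjusted p = 0.0203, edgeR) and the elongation factor gene *Eef2* (0.28, adjusted p = 0.0266, edgeR), and none was lower. *Eef1a1* had 0.21 and did not pass. Of 20 genes of mTORC1 and of factors that act on ribosomal protein genes, 1 was lower. This was *Yy1*, with 108 and 109 CPM in KL and 79.6 and 67.2 CPM in KLG4m/m, a log2 fold change of -0.56 ± 0.09 (SE). The YY1 core was found in promoters of 10 of the 46 member genes with a promoter entry. Among those 10, *Rpl35a* was the one with a peak that passed, and it was higher. *Rpl17* and *Rpl32* had no entry to search, and a link between *Yy1* and the member peaks was not tested. *Mtor* had -0.25 and *Eif4ebp2* 0.30, and neither passed. *Larp1* had 0.05. In edgeR at an unadjusted p under 0.05, none of the biogenesis, RNA polymerase I and translation factor genes was lower, and 3, 0 and 3 were higher, respectively, while 2 of the mTORC1 list were lower and 3 were higher. Over all genes 16.4% were lower and 12.4% were higher at this p. DESeq2 called *Yy1* alone among the genes of these 4 lists, and limma called none. These tools called few genes at all: of 20871, DESeq2 had 337 lower and 122 higher, and limma 83 and 36.

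Taken as a whole, the member peaks held 0.477% and 0.467% of the reads in listed peaks in the KL libraries and 0.472% and 0.481% in the KLG4m/m libraries. In KL replicate 1 the 95% Wilson interval, which covers counting error only, ran from 0.470% to 0.484%. The groups overlapped. The means were 0.472% ± 0.00709 and 0.477% ± 0.00591 (SD, n = 2 each), and the exact two-sided permutation test gave p = 0.667, where the smallest value it allows with 2 against 2 is 0.333. At 52 of the 61 start-site peaks the 95% interval excluded a change of 0.5 on the log2 scale in either direction. All values are relative to the reads in listed peaks, so a gain or loss of H3K4me3 common to the whole genome is outside what they can show.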

How the data were processed

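H3K4me3 was measured by an assay labelled CUT&Tag in 2 KL and 2 KLG4m/m libraries. The authors trimmed reads with Trim Galore 0.6.10, mapped them with BWA 0.7.15, removed duplicates with Picard 2.17.3, called peaks with MACS2 2.2.7.1 and annotated them with HOMER 4.11.1, per the labels. The deposited table holds whole read counts per peak and library, used here; its CPM and its columns of the authors' group comparison (log2 fold change, F, p-value, adjusted p-value) were not used. Its other measure used here is the deposited signed distance to the start site. The study's methods name an Ensembl mouse genome that rests on GRCm38. The table disagrees: its start sites lie within 100 bases of those on GRCm38 for 0 of 46 members. Its build is thus unsettled, peak coordinates are as the table gives them, and RefSeq promoters (GRCm38.p6) were matched by symbol only.

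Counts were tested with edgeR 4.0.16 (R 4.3.3; quasi-likelihood, TMM, no filter, no covariate), adjusted over all 35486 peaks or 20871 genes, with a threshold of 0.05. The SE is the log2 fold change divided by the root of F. Alternatives were DESeq2 1.42.0, edgeR scaled by total reads, a mean of at least 10 CPM, limma 3.58.1 on log2(CPM + 1), limma centred on library medians, other choices of peaks and leaving out each library. The test was tested on simulated data.

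Members, lists and tests were chosen with earlier results of these data known. Named members were those past the threshold, the 6 highest and 6 lowest, those with 3 or more peaks, those with known particular roles, paralogs, and structural genes with no listed peak; of each list the 3 with the smallest adjusted p. A few genes that the rule names are not reported here, nor drawn by name. Members close to the threshold and *Larp1*, *Mdm2*, neighbouring genes and genes sharing a start were named after their values were seen. The study's figure legend gives 2 mice a group and the labels give 4 libraries, but the protocol text counts 3 mice in all. It is thus not settled that n = 2 libraries a group means 2 mice a group.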

Additional observations from a re-analysis of the deposited data

How the results depend on the processing

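The direction of all 7 member peaks that passed held in every alternative that could be run on them. Their calls did not. The 6 lower and 1 higher peaks became 1 and 0 with DESeq2, 7 and 1 with edgeR scaled by total reads, 7 and 1 among the 66 member peaks left by the filter at 10 CPM, and 0 and 0 with limma on log2(CPM + 1), with or without centring of the libraries on their medians. Over all 35486 peaks the main test had 1960 lower and 1099 higher. DESeq2 had 250 and 33, and gave no adjusted p for 13760 peaks. By total reads there were 2038 and 1033, and with the filter 1827 and 848 of 20543 peaks. At an unadjusted p under 0.05 limma still had 6 lower and 2 higher among the members, and it called 0 of all 35486 peaks. Leaving out 1 library gave 0 to 7 lower and 0 higher: 7 lower without KL replicate 1, 3 without KL replicate 2, and 0 without KLG4m/m replicate 3 or 4, where all peaks together also gave 0 and the unadjusted counts of members were 6 and 8 lower and 4 and 4 higher. At these settings the lone library of a group is assumed to vary like those of the other group. Over all 20871 summed genes the main test had 2010 lower and 1122 higher, DESeq2 337 and 122, and total reads 1999 and 999. Limma had 83 and 36, or 69 and 57 after centring, and the filter gave 1826 and 995 of 16260 genes. The counts of members follow. For summed genes, 8 lower and 2 higher became 2 and 0 with DESeq2, 8 and 1 by total reads, 7 and 2 with the filter, 0 and 0 with limma with or without centring (9 lower and 1 higher, and 5 and 4 after centring, at an unadjusted p under 0.05), and 7 and 1 with the strongest or the nearest peak of each gene. Leaving out 1 library gave 0 to 6 lower and 0 to 1 higher. The cause of these differences was not tested. *Rplp0* also passed by total reads, with the filter and without KL replicate 1. The median over the member peaks stayed between -0.004 and 0.062. Of 77 peaks that did not pass, 37 turned sign in at least 1 of the 9 alternatives. No paired analysis was possible because the compared groups share no replicate number.

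Depth limits the distal peaks most: with 4 to 96 reads in a library their median SE was 0.31 on the log2 scale, against 0.10 at the start-site peaks.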
